A study of Mus musculus with 6 samples.

Results

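Immediate early genes are switched on within minutes of T cell receptor engagement, without a need for new protein, and most of their transcripts are short-lived. Their products are transcription factors (the NR4A receptors, the EGR factors and the FOS and JUN proteins of AP-1) and the brakes that follow them, such as dual specificity phosphatases acting on MAP kinases, Sprouty and RGS proteins, RNA-binding proteins of the ZFP36 family and inhibitors of NF-kB. In CD8+ T cells these genes report recent signalling through the ERK, calcium and NF-kB pathways.

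The list holds 45 immediate early and other activation response genes, named by symbol and grouped by family. All 45 were found among the 34745 genes of the RNA-seq files. Whether each is induced by activation in these cells was not tested. The list is one of gene names, with no threshold on a measured value. It was chosen with earlier results of these data known, so its shares beside those of all genes are descriptions only. The cells were CD8+ effector T cells (Teff) grown from spleens of 6 to 8 week old male mice, 3 libraries from C57BL/6J mice (WT) and 3 from mice lacking stearoyl-CoA desaturase 1 (B6.129-Scd1tm1Ntam/J, written *Scd-1*-/-). All 6 cultures were stimulated for 3 days with anti-CD3 (5 µg/mL), anti-CD28 (0.5 µg/mL) and IL-2 (100 U/mL), then held in IL-2 without the antibodies until harvest on day 6. The deletion is carried by every cell of the mouse, so no T cell-specific loss was compared. By the methods, the *Scd-1*-/- mice were donated and the C57BL/6J mice were bought. Genotype thus cannot be told apart from the origin of the mice or from strain background (B6.129 against C57BL/6J). The methods speak of independent experiments in general, but no source used here says whether these libraries came from separate mice or cultures, so the p-values measure the spread between these libraries, which may be technical. Libraries are numbered 1 to 3 in both genotypes, and the sources do not say what a number stands for.

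The libraries held 14034479 to 15866216 counts. As a check of the labels, *Scd1* had 4272, 3074 and 3761 counts in WT and 30, 36 and 20 counts in *Scd-1*-/- Teff. The first principal component (44.2% of the variance) set replicate 1 of both genotypes apart from the other libraries, and the second (36.2%) parted the genotypes. All 7 T and CD8 T cell markers were present, with summed levels of 1919 to 2425 FPKM in WT libraries and 1868 to 2154 FPKM in *Scd-1*-/- libraries (FPKM are fragments per kilobase of gene, scaled to the size of the library). The CD3 genes and *Trac* make up most of these sums. *Cd8a* was at 43.2, 47.6 and 47.1 FPKM in WT and 36.6, 27.9 and 33.7 FPKM in *Scd-1*-/- replicates 1, 2 and 3, with no overlap, and *Cd8b1* at 330, 290 and 275 against 299, 202 and 215 FPKM, with overlap. Of markers of other cells, the B cell genes *Ms4a1* and *Pax5* and the myeloid genes *Adgre1* and *S100a9* were at 0 in all 6 libraries. The summed CD4 T list (3 genes) was at 6.15 to 12.0 FPKM in WT and 8.01 to 11.2 FPKM in *Scd-1*-/- libraries. Nearly all of it was *Zbtb7b*, with *Cd4* itself at 0.0127 to 0.345 FPKM over the 6 libraries. The summed myeloid list (7 of 8 genes found) was at 0.828 to 3.18 FPKM in WT libraries and 3.52 to 9.35 FPKM in *Scd-1*-/- Teff, most of it *Itgax* and *Cd14*. The NK list (3 genes) was at 0.501 to 1.16 against 1.72 to 9.39 FPKM, most of it *Klrb1c*, and the B list (6 genes) at 9.42 to 10.7 against 3.13 to 7.996 FPKM, nearly all *Cd79b*. Within each genotype, replicate 1 had the highest T and CD8, myeloid and B sums and the lowest NK and CD4 T sums. The myeloid sum was 3.18, 1.01 and 0.828 FPKM in WT and 9.35, 4.43 and 3.52 FPKM in *Scd-1*-/- replicates 1, 2 and 3. Mitochondrial genes took 1.66% to 1.78% of WT and 2.25% to 3.20% of *Scd-1*-/- counts. The part of these differences in the genotype and replicate number results given here was not tested. In bulk RNA, fewer cells that carry a transcript and less of it per cell cannot be told apart.

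Of the 45 genes, 36 had a mean of at least 1 FPKM over the 6 libraries and were tested among the 9627 genes that passed this minimum. The other 9 (*Nr4a2*, *Nr4a3*, *Egr2*, *Egr3*, *Fos*, *Fosb*, *Fosl1*, *Nfkbiz* and *Spry1*) lay under it, with 4 to 249 counts per library. Levels ran over a wide range. *Jund*, a JUN family factor, had the highest mean of the 45 genes at 263 FPKM, 23 genes reached 10 FPKM and 8 reached 50 FPKM. *Fos* and *Egr2*, textbook immediate early genes, averaged under 1 FPKM 3 days after the antibodies were withdrawn.

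**Figure D1:**
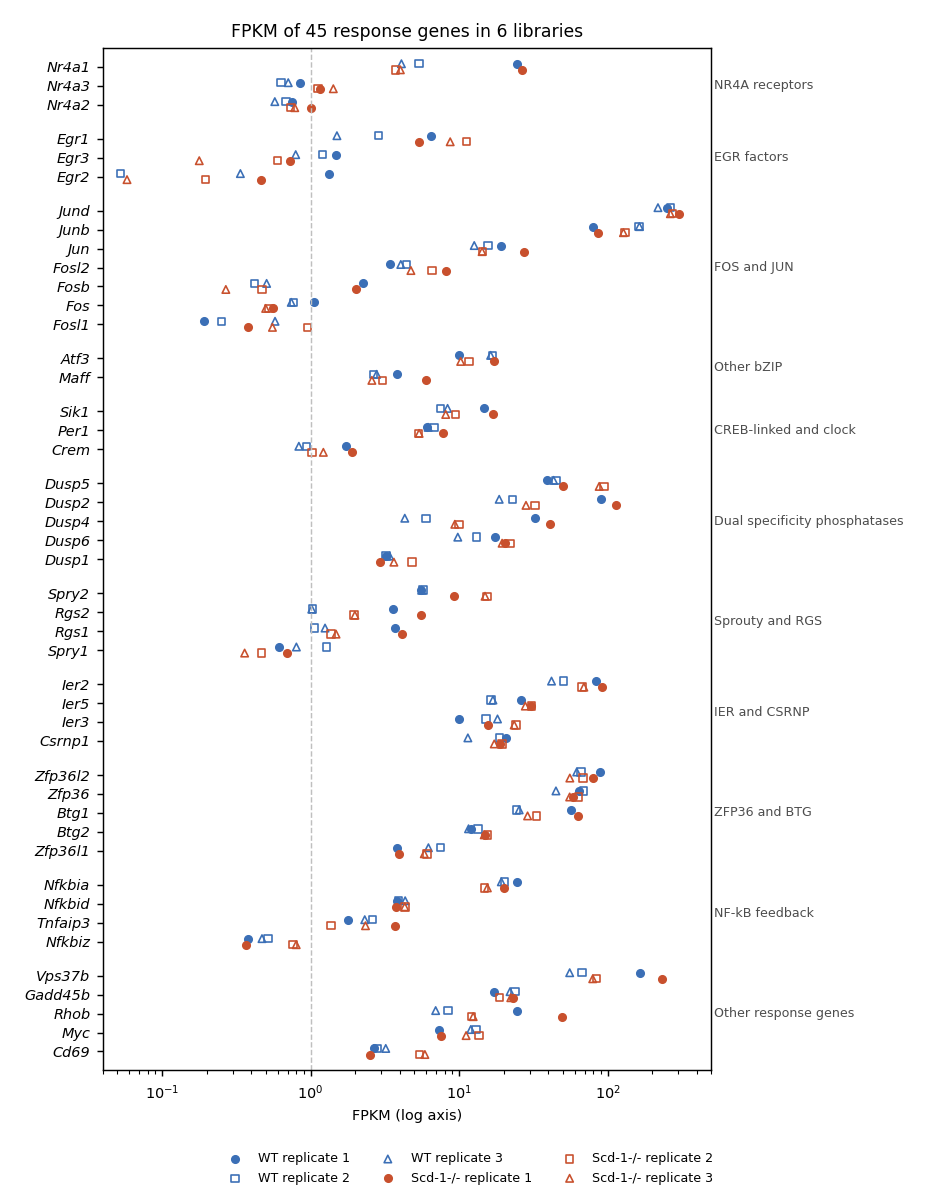
FPKM (log axis) of the 45 response genes in each of the 6 libraries, by family. Blue marks are WT and orange marks *Scd-1*-/- libraries, filled circles are replicate 1, open squares replicate 2 and open triangles replicate 3, and the dashed line is the minimum of 1 FPKM. For *Nr4a1*, *Dusp2*, *Dusp4*, *Rhob*, *Vps37b*, *Rgs1*, *Rgs2* and *Btg1* the filled circles of both genotypes lie apart from the other 4 marks.

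With all 6 libraries, more of these genes were called between replicate numbers than between genotypes. With replicates 2 and 3 alone, in fits added after seeing the data, the order was reversed. The number was tested with the quasi-likelihood (QL) F test of edgeR in a fit that also held the genotype, and each p was adjusted by Benjamini-Hochberg over the 9627 genes. Every adjusted p given for a gene is from this test and adjustment, for the term named, and genes under the minimum were adjusted over the 17192 genes that had any count. Of the 36 genes, 16 (44.4%) had an adjusted p under 0.05, against 15.9% of all genes tested. The median level was 15.4 FPKM for the 36 genes and 7.25 FPKM for all genes tested. This and the later shares thus compare sets of unlike level. In 13 of the 16, replicate 1 was higher than replicates 2 and 3 in both genotypes (36.1% of the 36 genes, 8.31% of all genes tested), and in 3 it was lower in both (8.33%, 7.49% of all genes tested). The test favours genes whose replicate numbers differ alike in both genotypes. Replicate 1 exceeded the mean of replicates 2 and 3 by more than 2-fold in both genotypes for 8 of the 36 genes (22.2%), as it did for 2.20% of all genes tested. These folds are ratios of TMM-scaled CPM (counts relative to the library total after edgeR's scaling), and the direction of replicate 1 was described after its values were seen. Within a genotype, replicates 2 and 3 differed by no more than 1.43-fold in WT and 1.21-fold in *Scd-1*-/- Teff for any of the 16 genes.

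*Nr4a1* (ENSMUSG00000023034, chromosome 15, 101254269 to 101274795, plus strand on GRCm38) encodes an orphan nuclear receptor widely used as a read-out of T cell receptor signalling. Its levels were 24.7, 5.39 and 4.09 FPKM in WT replicates 1, 2 and 3 and 26.6, 3.73 and 4.03 FPKM in *Scd-1*-/- replicates 1, 2 and 3. Replicate 1 was high in both genotypes, by 5.37-fold in WT and 6.91-fold in *Scd-1*-/- Teff over the mean of the other two, and the genotypes overlapped. The adjusted p between replicate numbers was 0.00171 in edgeR. Between genotypes the log2 fold change of *Nr4a1* was 0.02 (standard error, SE, 0.932), and with the replicate number as a block it was -0.11 (SE 0.165). *Nr4a2* and *Nr4a3*, its relatives, stayed at 0.575 to 1.42 FPKM.

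*Dusp2* (ENSMUSG00000027368, chromosome 2, 127336159 to 127338376, plus strand) and *Dusp4* (ENSMUSG00000031530, chromosome 8, 34807297 to 34819894, plus strand) encode nuclear phosphatases that inactivate MAP kinases. *Dusp2* was at 90.7, 22.8 and 18.6 FPKM in WT libraries and at 114, 32.5 and 28.2 FPKM in *Scd-1*-/- replicates 1, 2 and 3, a 4.51-fold and a 3.77-fold excess of replicate 1. *Dusp4* was at 32.7, 6.01 and 4.31 FPKM in WT libraries and at 41.1, 9.99 and 9.36 FPKM in *Scd-1*-/- Teff, a 6.53-fold and a 4.28-fold excess. The groups overlapped for both genes, since replicate 1 of WT lay above replicates 2 and 3 of *Scd-1*-/- Teff. The adjusted p between replicate numbers was 0.0010 for *Dusp2* and 0.00197 for *Dusp4* (edgeR).

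*Rhob* (ENSMUSG00000054364, chromosome 12, 8497661 to 8500009, minus strand) encodes a small GTPase of endosomes. *Vps37b* (ENSMUSG00000066278, chromosome 5, 124004641 to 124032270, minus strand) encodes a subunit of the ESCRT-I sorting complex. Both were high in replicate 1 as well. *Rhob* was at 24.5, 8.40 and 6.96 FPKM in WT libraries and at 49.5, 12.2 and 12.4 FPKM in *Scd-1*-/- replicates 1, 2 and 3. *Vps37b* was at 165, 67.5 and 55.6 FPKM in WT libraries and at 234, 84.0 and 79.5 FPKM in *Scd-1*-/- Teff, the third highest mean of the 45 genes. Replicate 1 was the highest library of its genotype for both, by 3.29-fold and 4.05-fold for *Rhob* and by 2.78-fold and 2.88-fold for *Vps37b* in WT and *Scd-1*-/- Teff. Their adjusted p between replicate numbers was 0.00232 and 0.00171 (edgeR).

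*Rgs1* (ENSMUSG00000026358, chromosome 1, 144242296 to 144249242, minus strand) and *Rgs2* (ENSMUSG00000026360, chromosome 1, 143999338 to 144004161, minus strand) encode GTPase-activating proteins that shorten signalling from G protein-coupled receptors. *Rgs1* was at 3.68, 1.06 and 1.25 FPKM in WT libraries and at 4.16, 1.38 and 1.48 FPKM in *Scd-1*-/- replicates 1, 2 and 3, with replicate 1 above the other 2 libraries by 3.29-fold and 2.92-fold (adjusted p between replicate numbers = 0.00255, edgeR). For *Rgs2* the folds were 3.62 and 2.80, and for the antiproliferative gene *Btg1* they were 2.36 and 2.06. The other 5 genes that were called with replicate 1 high were *Jun*, the CREB-linked genes *Sik1* and *Crem*, the RNA-binding protein gene *Zfp36l2* and *Ier2*, with folds of 1.297 to 2.00 over both genotypes.

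The 3 genes called with replicate 1 low were *Junb*, *Myc* and *Zfp36l1*. *Junb*, a JUN family factor and the second highest of the 45 genes, was at 80.3, 163 and 164 FPKM in WT libraries and at 86.0, 131 and 128 FPKM in *Scd-1*-/- replicates 1, 2 and 3. *Myc*, a driver of growth and metabolism in activated T cells, stood in replicate 1 at 0.604 of the mean of replicates 2 and 3 in WT and at 0.612 in *Scd-1*-/- Teff. Genes of the JUN family were called in both directions, as *Jun* was high and *Junb* low in replicate 1 of both genotypes, while *Jund* (250, 265 and 218 FPKM in WT libraries, 304, 274 and 265 FPKM in *Scd-1*-/- replicates 1, 2 and 3) was not called (adjusted p = 0.376, edgeR). *Junb* exons overlap exons of *Prdx2* on the opposite strand.

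**Figure D2:**
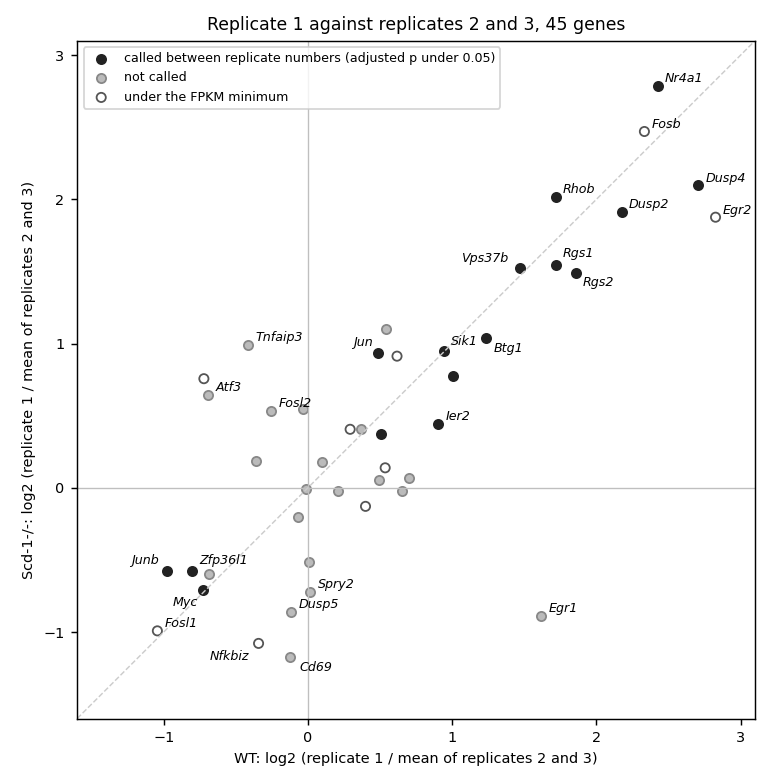
Log2 ratio of replicate 1 to the mean of replicates 2 and 3 (TMM-scaled CPM) in WT (horizontal axis) and *Scd-1*-/- Teff (vertical axis), 1 point per gene for all 45 genes. The black points are the 16 genes called between replicate numbers, and they lie near the dashed line of equal ratios, 13 at the upper right and 3 at the lower left, while *Egr1* lies at the lower right. The test favours genes whose ratios are alike in both genotypes, so the closeness of black points to the line follows from the call.

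With 1 library left out, 12 to 15 of the 36 genes were called between replicate numbers (7.80% to 12.0% of all genes tested), and 11 genes (*Btg1*, *Dusp2*, *Dusp4*, *Junb*, *Myc*, *Nr4a1*, *Rgs1*, *Rgs2*, *Rhob*, *Sik1* and *Vps37b*) were called with all libraries and in each of these 6 fits. With replicates 2 and 3 alone, edgeR's QL test called 0 of the 36 genes between these 2 numbers, 4 at an unadjusted p under 0.05, and 2 of the 9627 genes. Both sets of fits were added after seeing the data. Of the 9 genes under the minimum, *Fosb* was the one called (adjusted p = 0.00249, edgeR; 10.1% of the 17192 genes were called), at 2.25, 0.418 and 0.506 FPKM in WT libraries and 2.04, 0.472 and 0.269 FPKM in *Scd-1*-/- replicates 1, 2 and 3.

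The promoters of the genes were read from RefSeq on GRCm38.p6, from 250 bases before to 50 bases after each start, for 32 of the 45 genes. The set of promoters used held no entry for *Cd69*, *Fosl1*, *Egr1*, *Dusp4*, *Ier2*, *Crem*, *Vps37b*, *Egr3*, *Myc*, *Zfp36l2*, *Sik1*, *Nfkbiz* and *Rgs1*. This is a limit of that set and does not show that RefSeq lacks these genes. The letters TGACG, the core of the site that CREB and ATF proteins bind, were searched on both strands, with the full palindrome TGACGTCA, which contains them, counted apart. TGACG stood in 19 of the 32 promoters (59.4%), against 23.0% of 27025 genes, and TGACGTCA in 4 (12.5%, against 2.03%). GCGNGGGCG, a site for EGR factors, stood in 10 (31.3%, against 6.27%), the AP-1 site TGANTCA in 3 (9.38%, against 8.97%) and the CArG box of SRF in 3 (9.38%, against 1.81%). TGACG was found in 5 of 8 promoters of genes called between replicate numbers and in 14 of 24 of the others. A match is a string of letters and not a bound site.

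Of the 13 genes called with replicate 1 high in both genotypes, 6 had an entry, and the motifs were found in 4 of them and not in *Rhob* and *Jun*. Stretches before the starts of these 4, chosen because they hold a motif, are shown, 5′ to 3′ on the strand of the gene, with matches in capitals (CGTCA is TGACG and CGCCCCCGC is GCGGGGGCG read on the opposite strand). *Nr4a1* holds TGACG in 2 places and an EGR site in between (chr15:101266696-101266845, plus strand, at a RefSeq start inside the gene as GENCODE draws it). *Dusp2* holds an EGR site (chr2:127336009-127336158, plus strand). *Rgs2* (chr1:144004162-144004299, minus strand) and *Btg1* (chr10:96616851-96617000, plus strand) hold TGACG once each in these stretches.
Nr4a1: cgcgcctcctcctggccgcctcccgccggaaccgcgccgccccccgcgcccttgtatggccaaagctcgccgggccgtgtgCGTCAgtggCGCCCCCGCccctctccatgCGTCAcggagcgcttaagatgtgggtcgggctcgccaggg
Dusp2: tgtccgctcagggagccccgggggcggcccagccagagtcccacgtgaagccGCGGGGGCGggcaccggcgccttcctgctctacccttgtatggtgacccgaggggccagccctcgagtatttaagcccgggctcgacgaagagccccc
Rgs2: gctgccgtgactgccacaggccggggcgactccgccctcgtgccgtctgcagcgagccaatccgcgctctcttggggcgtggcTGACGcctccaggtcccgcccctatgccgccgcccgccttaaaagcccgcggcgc
Btg1: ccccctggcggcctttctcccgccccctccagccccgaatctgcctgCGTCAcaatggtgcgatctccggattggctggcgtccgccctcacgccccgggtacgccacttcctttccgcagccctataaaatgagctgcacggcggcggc

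Between genotypes, most of the genes had somewhat higher values in *Scd-1*-/- Teff. On the log2 scale the ratio of *Scd-1*-/- to WT lay above 0 for 30 of the 36 genes (83.3%), as for 49.9% of all genes tested. Without *Scd-1*-/- replicate 1 this count fell to 18 of the 36 genes, and without 1 of the other libraries it was 26 to 32. Its median over the 36 genes was 0.25, and that over all genes tested was -0.000506. Within same-numbered pairs of libraries the median of the 36 genes was 0.22, 0.27 and 0.33 for numbers 1, 2 and 3, with 28, 26 and 28 genes above 0. The median of the 36 genes fell to 0.00592 without *Scd-1*-/- replicate 1 and reached 0.56 without WT replicate 1, the libraries in which many of these genes were high.

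A single gene, *Spry2*, passed the thresholds of the study (at least a 2-fold change, that is 1 on the log2 scale, at an unadjusted p under 0.001), which 0.738% of all genes tested passed. None of the 36 genes had an adjusted p under 0.05 in edgeR's QL test, as had 0.114% of all genes tested. DESeq2 gave 2 (*Dusp5* and *Spry2*), where it called 2.76% of all genes tested, and 6 genes had an unadjusted p under 0.05 in edgeR's test, against 10.1% of all genes tested. With the replicate number as a block, *Spry2* was again the 1 gene past those thresholds (1.91% of all genes tested), and 6 of the 36 genes (16.7%) had an adjusted p under 0.05, against 4.70% of all genes tested. All 6 were higher in *Scd-1*-/- Teff (2.64% of all genes tested): *Spry2*, *Dusp5*, *Rhob*, *Vps37b*, *Dusp2* and *Rgs2*. The block takes same-numbered libraries of the genotypes as matched, which the sources do not state. At an unadjusted p under 0.05 the block called 18 genes (22.4% of all genes tested), 17 of them higher in *Scd-1*-/- Teff (11.3%), and the exception was *Nfkbia*.

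*Spry2* (ENSMUSG00000022114, chromosome 14, 105891947 to 105896819, minus strand) encodes a Sprouty protein, a feedback inhibitor of receptor signalling to RAS and ERK. It was at 5.53, 5.71 and 5.60 FPKM in WT libraries and at 9.18, 15.5 and 14.96 FPKM in *Scd-1*-/- replicates 1, 2 and 3, that is 5.61 ± 0.0879 against 13.2 ± 3.49 FPKM (mean ± SD of 3 libraries each). All *Scd-1*-/- libraries lay above all WT libraries, with replicate 1 the lowest of them. On the log2 scale the difference was 1.26 (SE 0.232, unadjusted p = 0.000731 and adjusted p = 0.0988, edgeR), and with the block it was 1.22 (adjusted p = 0.0175, same test). *Spry2* passed the thresholds of the study without *Scd-1*-/- replicate 1 and missed them without any of the other 5 libraries, where the values lay between 1.12 and 1.27. *Spry1*, its relative, was under the minimum at 0.360 to 1.28 FPKM. Its groups overlapped, and its log2 fold change was -0.82 (SE 0.436).

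*Dusp5* (ENSMUSG00000034765, chromosome 19, 53529109 to 53542431, plus strand) encodes a nuclear phosphatase that binds ERK and is itself an ERK target. Its levels were 39.4, 44.9 and 43.3 FPKM in WT libraries and 49.9, 94.8 and 87.8 FPKM in *Scd-1*-/- replicates 1, 2 and 3. The groups did not overlap, and replicate 1 was again the lowest of the *Scd-1*-/- libraries. The difference on the log2 scale was 0.89 (SE 0.233; adjusted p = 0.241, edgeR) and 0.84 with the block (adjusted p = 0.0296, same test). Without *Scd-1*-/- replicate 1 it was 1.12 (adjusted p = 0.00927, edgeR), and with 1 of the other libraries left out it was not called. *Dusp6*, which encodes the cytoplasmic ERK phosphatase, had groups that did not overlap either (13.4 ± 3.82 against 20.6 ± 1.28 FPKM, mean ± SD of 3 libraries each) and a log2 fold change of 0.63 (adjusted p = 0.407 without and 0.0643 with the block, edgeR), which lay between 0.44 without WT replicate 3 and 0.88 without WT replicate 1. All 5 phosphatase genes had values above 0, from 0.23 for *Dusp1* to 0.89 for *Dusp5*, but *Dusp2* and *Dusp4* turned to -0.53 and -0.57 without *Scd-1*-/- replicate 1, and *Dusp1* was at 0.023 without *Scd-1*-/- replicate 2. The exons of *Dusp5* overlap those of *AC137853.2* on the opposite strand, as those of *Dusp1* overlap *Ergic1*.

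The stretches before the starts of *Dusp5* and *Spry2*, the genes called with the block whose groups did not overlap, are shown in the same way. *Dusp5* (chr19:53528995-53529108, plus strand) holds 2 CArG boxes in a row and TGACG after them, and lies in an exon of the antisense gene *AC137853.2*. *Spry2* (chr14:105896820-105896969, minus strand) holds none of the motifs searched.
Dusp5: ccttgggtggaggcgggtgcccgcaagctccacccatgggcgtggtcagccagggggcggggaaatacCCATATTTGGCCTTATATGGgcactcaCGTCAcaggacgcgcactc
Spry2: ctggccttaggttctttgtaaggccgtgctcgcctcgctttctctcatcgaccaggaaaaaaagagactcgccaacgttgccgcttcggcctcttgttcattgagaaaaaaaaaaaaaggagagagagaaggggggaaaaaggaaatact

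For the other 4 genes called with the block, the WT and *Scd-1*-/- libraries overlapped, and each same-numbered *Scd-1*-/- library lay above its WT counterpart. The folds in TMM-scaled CPM for numbers 1, 2 and 3 were 2.02, 1.46 and 1.87 for *Rhob* and 1.41, 1.25 and 1.49 for *Vps37b*. They were 1.25, 1.43 and 1.58 for *Dusp2* and 1.53, 1.91 and 2.04 for *Rgs2*, whose levels were 3.60, 1.03 and 1.02 FPKM in WT libraries and 5.50, 1.96 and 1.99 FPKM in *Scd-1*-/- Teff. With the block the log2 fold changes were 0.83 for *Rhob*, 0.47 for *Vps37b*, 0.50 for *Dusp2* and 0.84 for *Rgs2* (adjusted p = 0.0208, 0.0371, 0.0453 and 0.0453 in edgeR). Without the block their adjusted p lay between 0.736 and 0.912 in the same test. In fits without the block, leaving out *Scd-1*-/- replicate 1 turned *Rhob* to -0.10, *Vps37b* to -0.23 and *Dusp2* to -0.53 and took *Rgs2* from 0.75 to 0.074. *Dusp4* had folds of 1.26, 1.67 and 2.27 and an adjusted p of 0.0544 with the block (edgeR). Exons of *Vps37b* overlap those of *Hip1r* on the opposite strand.

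**Figure D3:**
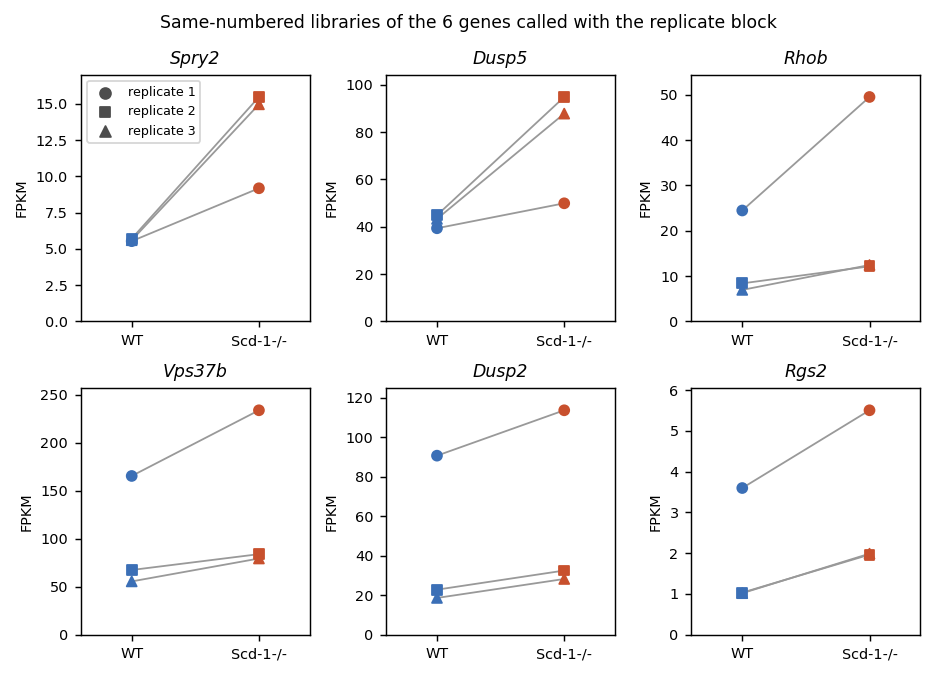
Levels in FPKM (linear axes from 0) of the WT and *Scd-1*-/- libraries for the 6 genes called with the replicate block, with lines joining libraries of the same replicate number (circle 1, square 2, triangle 3). Every line rises from WT to *Scd-1*-/-; replicate 1 rises least for *Spry2* and *Dusp5* and lies far above the other 2 numbers for *Rhob*, *Vps37b*, *Dusp2* and *Rgs2*.

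**Figure D4:**
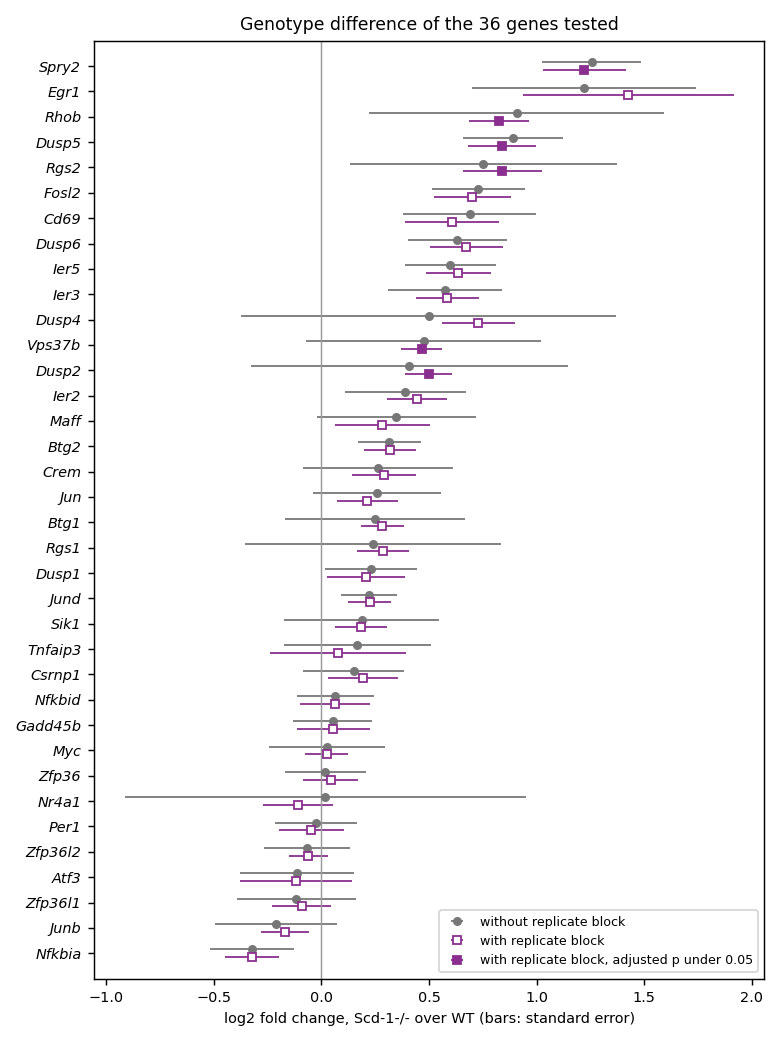
Log2 fold change of *Scd-1*-/- over WT with its standard error for the 36 genes tested, without the replicate block (grey circles) and with it (squares, filled where the adjusted p is under 0.05 in edgeR's QL test). The block leaves most values in place and shortens the bars of genes such as *Dusp2*, *Rhob*, *Rgs2*, *Dusp4* and *Nr4a1*, and the value of *Nr4a1* turns from 0.02 to -0.11.

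In the transcription factor families, no gene was called between genotypes with or without the block. *Egr1*, a zinc finger factor induced through ERK, had the second largest log2 fold change of the 36 genes (1.22, SE 0.520), with an adjusted p of 0.488 and of 0.142 with the block (edgeR). Without WT replicate 1 it was 1.98, and without 1 of the other libraries 0.84 to 1.46, none of them called by edgeR. With replicates 2 and 3 alone it was 2.22 (adjusted p = 0.00144, edgeR), in a fit added after seeing the data that called 12.6% of all genes tested. Its levels, given because the libraries disagreed, were 6.50, 2.86 and 1.51 FPKM in WT libraries and 5.34, 11.2 and 8.72 FPKM in *Scd-1*-/- replicates 1, 2 and 3. The same-numbered folds were 0.819, 3.93 and 6.05, so number 1 went the other way. *Atf3*, a bZIP factor of the stress response, also split by number, with folds of 1.72, 0.700 and 0.657 and a log2 fold change of -0.11 (SE 0.267). *Egr1* and *Atf3* were singled out after their values were seen.

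Among the AP-1 genes, *Fosl2* had groups that did not overlap, at 3.97 ± 0.497 FPKM in WT libraries and 6.48 ± 1.69 FPKM in *Scd-1*-/- Teff (mean ± SD of 3 libraries each). Its log2 fold change was 0.73 (SE 0.216), and its adjusted p was 0.291, and 0.0689 with the block (edgeR). Leaving out replicate 1 of the *Scd-1*-/- libraries gave 0.53 and leaving out replicate 3 of them gave 0.91. *Jun*, *Junb* and *Jund* had log2 fold changes of 0.26, -0.21 and 0.22, and their groups overlapped. Without *Scd-1*-/- replicate 1, *Jun* was at -0.13 and *Junb* at -0.041. Under the minimum, *Fos* (0.742 to 1.06 against 0.499 to 0.559 FPKM) and *Egr3* (0.794 to 1.49 against 0.178 to 0.726 FPKM) were lower in each *Scd-1*-/- library than in each WT library, and *Nr4a3* was higher (0.633 to 0.855 against 1.12 to 1.42 FPKM). None of these 3 had an adjusted p under 0.05 in the fit to 17192 genes, where 0.489% of genes had one and 4.36% had one with the block (for *Fos* 0.654 and 0.302, for *Egr3* 0.623 and 0.209, for *Nr4a3* 0.304 and 0.0503 without and with the block, edgeR).

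Of the 36 genes, 6 (16.7%) had groups that did not overlap, a share near the 16.0% of all genes tested. All 6 were higher in *Scd-1*-/- Teff (7.67% of all genes tested): *Spry2*, *Dusp5*, *Dusp6*, *Fosl2*, *Ier5* and *Btg2*. *Ier5*, which encodes a nuclear immediate early response protein, was at 19.9 ± 5.52 FPKM in WT libraries and 29.7 ± 1.55 FPKM in *Scd-1*-/- Teff (mean ± SD of 3 libraries each). *Btg2*, an antiproliferative gene, was at 12.3 ± 0.969 and 15.1 ± 0.420 FPKM (mean ± SD of 3 libraries each). *Ier2* is among the 6 most abundant of the 45 genes, at 84.0, 50.7 and 41.9 FPKM in WT libraries and 92.3, 67.4 and 69.2 FPKM in *Scd-1*-/- replicates 1, 2 and 3. The 4 IER and CSRNP genes had log2 fold changes between 0.15 and 0.60, none of them called without or with the block. *Ier5* was called without WT replicate 1 (0.87, adjusted p = 0.0389, edgeR), and *Ier5* and *Ier2* with replicates 2 and 3 alone (0.85 and 0.60, adjusted p = 0.00296 and 0.0260, edgeR). With 1 library left out *Ier2* ranged from 0.18 to 0.76.

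Among the RNA-binding and NF-kB feedback genes, none was called between genotypes, without or with the block. *Zfp36l2*, which encodes a protein that binds AU-rich transcripts and hastens their decay, was at 88.4, 66.3 and 62.0 FPKM in WT libraries and 79.9, 68.5 and 55.7 FPKM in *Scd-1*-/- replicates 1, 2 and 3. The groups overlapped, and the log2 fold change was -0.07 (SE 0.198). *Zfp36*, the founding member of the family, had a log2 fold change of 0.02 (SE 0.188), and *Zfp36l1* of -0.12 (SE 0.277). *Nfkbia*, which encodes IkB-alpha, had the lowest log2 fold change of the 36 genes, at -0.32 (SE 0.195), with an adjusted p of 0.187 with the block (edgeR). *Cd69*, a surface marker of early activation, was at 2.68, 2.83 and 3.21 FPKM in WT libraries and at 2.50, 5.43 and 5.89 FPKM in *Scd-1*-/- replicates 1, 2 and 3, so that number 1 went the other way. Its log2 fold change was 0.69 (SE 0.307). It was called without *Scd-1*-/- replicate 1 (0.98, adjusted p = 0.0396) and with replicates 2 and 3 alone (0.94, adjusted p = 0.00596, both edgeR), and in none of the other fits with 1 library left out.

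Of 95 other genes of the pathways upstream and downstream, in 6 lists, 87 were tested. A single one passed the thresholds of the study (0.738% of all genes tested). It was *Pdcd1*, which encodes the inhibitory receptor PD-1, at 32.4, 30.5 and 37.0 FPKM in WT libraries and 91.4, 151 and 148 FPKM in *Scd-1*-/- replicates 1, 2 and 3 (log2 fold change 1.99, SE 0.212, adjusted p = 0.0259 in edgeR). *Pdcd1* passed those thresholds with any 1 library left out (1.87 to 2.19), but its adjusted p was 0.0991 to 0.259 without WT or *Scd-1*-/- replicate 2 or 3 (edgeR). As for *Spry2* and *Dusp5*, replicate 1 was the lowest of its *Scd-1*-/- libraries. With the block, 3 genes were called higher and 3 lower in *Scd-1*-/- Teff, together 6.90% of the 87 genes against 4.70% of all genes tested. The higher ones were *Pdcd1*, *Ifng* (1.57, adjusted p = 0.0232) and *Ccl4* (1.12, adjusted p = 0.0281), and the lower ones were the transcription factor gene *Irf4* (-0.80, adjusted p = 0.00912), the calcium sensor gene *Stim2* (-0.87, adjusted p = 0.0302) and *Cabin1*, which encodes a calcineurin inhibitor (-0.50, adjusted p = 0.0365), all from edgeR.

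By list, the median log2 fold change was 0.11 over 16 activation outputs, -0.23 over 16 calcium and NFAT genes, 0.14 over 13 dimer partners and related bZIP factors, 0.04 over 18 genes of the ERK and SRF cascade, 0.00132 over 7 heat shock genes and -0.09 over 17 NF-kB core genes. None of the 18 ERK and SRF genes and none of the 17 NF-kB genes was called between genotypes, without or with the block. Between replicate numbers, 19 of the 87 genes were called (15.9% of all genes tested), 8 of them among the 16 activation outputs. Replicate 1 was high in both genotypes for *Ifng* (17.2, 3.13 and 2.68 FPKM in WT libraries, 30.9, 11.6 and 11.7 FPKM in *Scd-1*-/- replicates 1, 2 and 3), *Ccl3*, *Ccl4*, *Tnfrsf9* and *Lag3*, and low for *Il2ra*, *Tfrc* and *Slc7a5*. The 3 heat shock genes called (*Hsp90aa1*, *Hsph1* and *Hspd1*) were all low in replicate 1.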

How the data were processed

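RNA from 3 WT and 3 *Scd-1*-/- Teff libraries was sequenced. Sources differ on the preparation, since the methods give RNeasy columns and a stranded kit for total RNA, and the labels give Trizol and poly(A) RNA. The submitters' processing notes name HISAT2, StringTie 1.3.0 and GRCm38, and whether counting used strand is not given in the sources used here, so the 13 genes whose exons overlap another gene on the opposite strand are uncertain. The authors deposited whole-number counts per gene without normalization. The authors also deposited FPKM, in which no TMM factor was found (largest deviation 1.8e-05). Groups and numbers came from the labels. The 45 genes and the lists were chosen with earlier results of these data known.

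Counts were tested with edgeR 4.0.16 (quasi-likelihood, TMM, R 4.3.3) over 9627 genes with a mean of at least 1 FPKM, with no block, as the study names none. The standard error is the log2 fold change over the square root of F. Genes under the minimum were read from a fit to 17192 genes. DESeq2 1.42.0 and limma 3.58.1 (pseudocounts 1 and 0.1) were alternatives. A count of 0 leaves room for up to 3 counts (counting error only). An exact permutation test of 3 libraries against 3 cannot give a p under 0.1 and was not run. The chi-square per degree of freedom between libraries of a genotype was 12.2 and 14.8 for replicates 2 and 3 and 51.3 to 62.1 for pairs with replicate 1. No library was thus a copy of another, which does not show that they came from separate cultures.

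Whether the numbers pair the libraries was checked across the 9627 genes by correlating deviations from the group means. The r was 0.618, 0.324 and 0.493 for numbers 1, 2 and 3, all over 0.1. The crossed pairs of numbers 2 and 3 had 0.422 and 0.190, the higher of them above the 0.324 of number 2. Replicate 1 stood apart in both genotypes and enters each group mean, which by itself raises the r among numbers 2 and 3. The check thus cannot tell whether numbers 2 and 3 pair the libraries. Blocked values are given where they change a call. Values in every library are given for genes called in either fit, the 6 highest genes, and the 6 with the smallest p between replicate numbers. Genes named beyond these were chosen after their values were seen. Positions and overlaps are from GENCODE M21 on GRCm38. The tests were tried on simulated counts first.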

Additional observations from a re-analysis of the deposited data

How the results depend on the processing

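The number of genes past the thresholds of the study (1) and the number with an adjusted p under 0.05 (0, edgeR's quasi-likelihood test with 6 at an unadjusted p under 0.05) were kept with limma, with median-ratio scaling, and with the FPKM minimum dropped or raised to 5. The second number was 2 with DESeq2 and 6 with the replicate block (2.76% and 4.70% of all genes tested, against 0.114%), and the median log2 fold change was 0.19 with limma on log2(FPKM + 1) and 0.28 with the replicate block. Of the pathway genes, the block called 3 by the thresholds (1.91% of all genes tested) and 6 by the adjusted p, and DESeq2 called 3 by the adjusted p (*Irf4*, *Pdcd1* and *Stim2*). With replicates 2 and 3 alone, added after seeing the data, 3 of the 36 genes passed the thresholds (3.83% of all genes tested), 13 had an adjusted p under 0.05 (12 higher and *Atf3* lower in *Scd-1*-/- Teff; 12.6% of all genes tested), the median was 0.33, and 4 and 13 pathway genes were called. Between replicate numbers, 13 to 16 genes were called with other minimums, scaling or DESeq2 (10.1% to 19.4% of all genes tested; the 13 were of 28 genes above 5 FPKM) and 12 to 15 with 1 library left out (7.80% to 12.0%), but 0 between numbers 2 and 3 alone (edgeR's quasi-likelihood test, 4 at an unadjusted p under 0.05). The cause of these changes was not tested.

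With 1 library left out, 0 to 2 genes passed the thresholds (0.260% to 1.69% of all genes tested), 0 to 3 had an adjusted p under 0.05 (0.0208% to 1.89%; *Ier5* without WT replicate 1, and *Cd69*, *Dusp5* and *Spry2* without *Scd-1*-/- replicate 1), and the median lay between 0.00592 and 0.56. For pathway genes these counts were 1 in every fit and 0 to 1 (*Pdcd1* in each case). *Nr4a1* turned to -0.12 and -0.14 with limma (pseudocounts 1 and 0.1), -0.11 with the block and -0.25 with replicates 2 and 3 alone, where *Tnfaip3* was at -0.37 and *Gadd45b* at -0.12. Ranges that crossed 0 with 1 library left out were those of *Nr4a1* (-1.55 to 1.31), *Dusp2* (-0.53 to 1.53), *Dusp4* (-0.57 to 2.01), *Rhob* (-0.10 to 1.73), *Vps37b* (-0.23 to 1.15), *Rgs1* (-0.47 to 1.06), *Btg1* (-0.19 to 0.79), *Fosb* (-1.49 to 1.01), *Egr2* (-2.15 to 0.31), *Crem* (-0.045 to 0.68), *Sik1* (-0.20 to 0.57), *Jun* (-0.13 to 0.44), *Maff* (-0.12 to 0.57), *Myc* (-0.18 to 0.23), *Per1* (-0.23 to 0.066), *Atf3* (-0.36 to 0.029), *Csrnp1* (-0.078 to 0.33), *Gadd45b* (-0.058 to 0.15), *Tnfaip3* (-0.24 to 0.45), *Zfp36* (-0.16 to 0.14), *Zfp36l1* (-0.34 to 0.11) and *Zfp36l2* (-0.20 to 0.12). Ranges on 1 side of 0 whose ends differed by over 1.5 times were those of *Rgs2* (0.074 to 1.66), *Egr1* (0.84 to 1.98), *Dusp1* (0.023 to 0.38), *Ier2* (0.18 to 0.76), *Ier3* (0.38 to 0.75), *Jund* (0.13 to 0.28), *Nfkbid* (0.026 to 0.13), *Junb* (-0.47 to -0.041), *Nfkbia* (-0.47 to -0.19), *Spry1* (-1.08 to -0.44), *Egr3* (-1.56 to -0.79), *Fosl1* (0.48 to 1.51), *Nfkbiz* (0.33 to 0.82), *Nr4a2* (0.22 to 0.44), *Cd69* (0.47 to 0.98), *Dusp6* (0.44 to 0.88), *Ier5* (0.48 to 0.87), *Fosl2* (0.53 to 0.91), *Dusp5* (0.72 to 1.12) and *Fos* (-0.76 to -0.49). For most genes whose range crossed 0 the lowest value came without *Scd-1*-/- replicate 1. The 9 genes under the minimum had 4 to 249 counts per library, and depth limits most those with the fewest.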
